A study of Mus musculus with 8 samples.

Results

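The proteasome genes were followed in mouse regulatory T cells with and without Raptor. They were all genes whose platform symbol starts with Psma, Psmb, Psmc, Psmd, Psme or Psmg and a digit, taken from probe sets with a single gene and leaving out pseudogenes. This gave 46 genes with 70 probe sets, out of 17097 genes on the array, and each gene was represented by its probe set with the highest mean. The 46 comprised 16 genes of the core particle, 3 of the immunoproteasome, 16 of the regulatory particle, 3 activators, 6 assembly chaperones and 2 genes that match by symbol but encode no subunit. Psmc6, Psmd10 and Psme4 had no single-gene probe set in the annotation used and were not analysed here. In all, 44 genes were bright enough to be tested, meaning above the 40th percentile of the array on at least 4 arrays. The exceptions were Psma8, an alpha subunit of the testis, and Psmb11, the catalytic subunit of the thymic cortex, whose means of 4.21 and 4.33 in WT lay under that percentile.

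Each RNA came from freshly sorted CD4+CD25+ cells of spleen and peripheral lymph nodes on the C57Bl/6J background, 4 samples from WT mice and 4 from CD4(cre)Raptor(fl/fl) mice, called RaptorKO here. Raptor is the scaffold that defines the kinase complex mTORC1, and the comparison asks which transcripts differ when it is lost. The Cre is driven by Cd4, which is active before the CD4 and CD8 lineages part, so Raptor is deleted in all their descendants and not only in regulatory T cells. The age and sex of the mice and the pooling of animals are not given in the labels. The transcript of Rptor itself differed by -0.23 on the log2 scale (SE 0.12, limma adjusted p = 0.491), and its probe set is not placed here relative to the deleted exons. The regulatory T cell marker Foxp3 was bright on every array (10.79 to 11.04) and differed by 0.12. Of 6 such markers, 4 had a higher mean in RaptorKO (median 0.061), and 0 passed a limma adjusted p of 0.05. Ctla4 differed by -0.32 and Ikzf2 by 0.21, each without overlap of the groups (limma adjusted p = 0.169 and 0.342).

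The proteasome is the barrel-shaped protease that degrades proteins tagged with ubiquitin. Its core particle stacks rings of alpha subunits, which form the gate, and rings of beta subunits, 3 of which carry the catalytic sites. The regulatory particle caps the core: its ATPases unfold the substrate and its non-ATPase subunits bind ubiquitin and remove it. In lymphoid cells and under interferon the catalytic subunits encoded by Psmb5, Psmb6 and Psmb7 are replaced by those encoded by Psmb8, Psmb9 and Psmb10, which gives the immunoproteasome and alters the peptides offered on MHC class I. The activators encoded by Psme1, Psme2 and Psme3 open the gate in place of the regulatory particle. In other cell types mTORC1 activity has been linked to proteasome gene expression through the transcription factor encoded by Nfe2l1.

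Promoters were found for 38 of the 46 genes in the RefSeq table of build GRCm38.p6, 42 promoters in all, each reaching from 250 bases before to 50 after an annotated start. The following stretches of 60 bases are shown because they belong to the member genes with the smallest p-values, Psme2 and Psmd2, and to a catalytic pair that exchange places in the immunoproteasome, Psmb5 and Psmb8. Each is written 5′ to 3′ on the strand of its gene and lies wholly before the start. Capitals mark a GC box in Psme2 (chr14:55591136-55591195, minus strand), an ETS core in Psmd2 (chr16:20651592-20651651, plus strand), an antioxidant response element in Psmb5 (chr14:54618008-54618067, minus strand) and an interferon-activated site in Psmb8 (chr17:34198073-34198132, plus strand).
Psme2: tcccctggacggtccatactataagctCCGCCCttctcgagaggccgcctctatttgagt
Psmd2: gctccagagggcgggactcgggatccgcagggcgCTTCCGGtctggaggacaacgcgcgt
Psmb5: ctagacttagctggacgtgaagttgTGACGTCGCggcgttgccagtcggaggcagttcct
Psmb8: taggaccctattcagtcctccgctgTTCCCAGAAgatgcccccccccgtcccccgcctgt

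Searched on both strands, the antioxidant response element TGACNNNGC, the kind of site bound by the factor of Nfe2l1, occurred in 4 of the 42 promoters (9.52%), those of Psmb5, Psmb6, Psmd9 and Psmd12, against 12.4% of all 32851 promoters of the table. The interferon-activated site TTCNNNGAA occurred in 3 (7.14%), those of Psmb8, Psmd2 and Psmg1, against 8.30% of all. The ETS core CCGGAAG was present in 15 promoters (35.7%), of 14 genes, against 8.86% of all. The GC box GGGCGG was present in 22 promoters (52.4%), of 21 genes, against 35.7%. The CCAAT box occurred in 15 (35.7%) against 37.4%, and the E-box CACGTG in 5 (11.9%) against 7.15%. Matches to different motifs overlapped in 1 promoter, that of Psmd9. A match is a description of the letters and not of binding. The motifs were chosen after the promoters had been seen, so these shares are no independent support. The promoters of the whole table were not matched to those of the members in base composition.

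No proteasome gene passed the test between the genotypes. Of 44 tested members, 0 were called higher and 0 lower at a limma adjusted p under 0.05, where 0.824% of all 11413 tested genes were called higher and 1.14% lower. At an unadjusted p under 0.05, 1 was higher and 3 were lower, shares near or below the 5.55% and 7.49% of all genes. The means nevertheless leaned one way: 37 of the 44 were lower in RaptorKO, or 84.1%, against 52.4% of all tested genes. The members varied together from array to array, so this count does not stand for 44 separate observations. Above their own mean over the 8 arrays were 39 of 44 on WT 1, 11 on WT 2, 32 on RaptorKO 2 and 3 on RaptorKO 3. The median difference was -0.11 on the log2 scale, against -0.0092 over all tested genes. It was -0.060 without RaptorKO 3 and -0.084 with quantile normalization. The members were brighter than the tested genes as a whole (median level 8.64 against 6.60), and the comparison was not matched for brightness. The SD of a single member within a group had a median of 0.14 (0.18 over all tested genes).

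**Figure D1:**
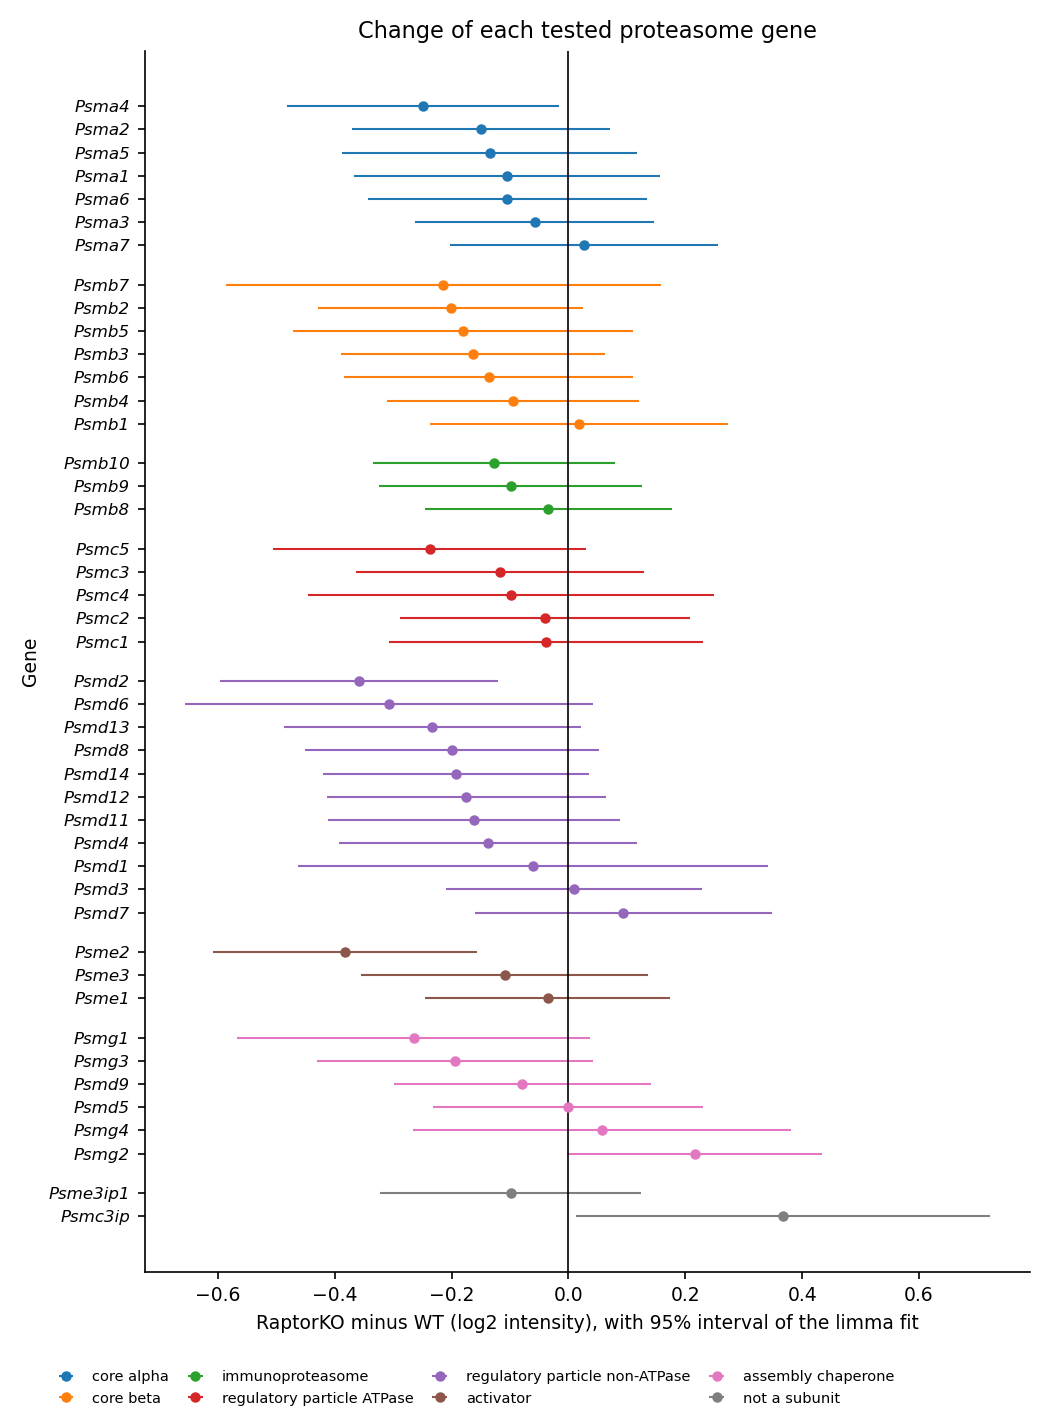
Difference RaptorKO minus WT in log2 intensity for the 44 tested genes, ordered by class, with the 95% interval of the limma fit (4 arrays per group). Most points lie left of 0, and 40 of the 44 intervals include 0.

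The intervals limit how large a difference could be. For 40 of the 44 genes the 95% interval included 0, for 3 it lay below 0 (Psme2, Psmd2 and Psma4) and for 1 above it (Psmc3ip). The lowest bound of any interval was -0.66, for Psmd6, and the highest was 0.72, for Psmc3ip, so that a 2-fold difference (1 on the log2 scale) lay outside every interval. These intervals are not corrected for the number of genes.

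Of the activators, all 3 had a lower mean in RaptorKO, with a median of -0.11 (-0.034 without RaptorKO 3, -0.18 without RaptorKO 1 and -0.066 when the probe sets of each gene were averaged). Psme2 encodes the beta subunit of the interferon-inducible activator ring. It read 9.86, 9.68, 9.88 and 9.83 in WT 1 to WT 4 and 9.60, 9.45, 9.40 and 9.27 in RaptorKO 1 to RaptorKO 4. All RaptorKO values lay under all WT values. The mean was 9.81 ± 0.09 in WT and 9.43 ± 0.13 in RaptorKO (SD, n = 4), a difference of -0.38 (SE 0.10, limma adjusted p = 0.0966), which was the smallest adjusted p among the members. Among the alternatives tried it passed in 1, an intensity trend in the variance model (limma adjusted p = 0.0235), and the highest adjusted p was 0.595, within replicates 1 and 2.

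Psme1 encodes the alpha subunit of the same ring. Its values were 10.68, 10.51, 10.69 and 10.69 in WT and 10.49, 10.68, 10.60 and 10.65 in RaptorKO, with overlapping groups and a difference of -0.035 (95% interval -0.24 to 0.17). Its lowest value in each genotype was on a different replicate number, WT 2 and RaptorKO 1. Psme3 encodes the nuclear activator, which is not interferon-inducible. It read 9.82, 9.73, 9.91 and 9.86 in WT and 9.94, 9.77, 9.48 and 9.70 in RaptorKO, a difference of -0.11 (SE 0.11, limma adjusted p = 0.785), with RaptorKO 1 above every WT array.

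Groups that did not overlap were found for 3 members, all lower in RaptorKO: Psme2, Psmb2 and Psmb10. For comparison, 5.09% of all tested genes did not overlap with RaptorKO lower and 3.73% with RaptorKO higher.

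The immunoproteasome genes were bright and close between genotypes. Psmb8 read 10.54, 10.35, 10.53 and 10.54 in WT and 10.46, 10.55, 10.34 and 10.47 in RaptorKO. The groups overlapped fully, and the difference was -0.035 (95% interval -0.25 to 0.18, limma adjusted p = 0.936). Psmb9 read 10.49, 10.68, 10.44 and 10.65 in WT and 10.52, 10.57, 10.33 and 10.46 in RaptorKO, a difference of -0.099 (95% interval -0.32 to 0.13). A dimmer Psmb9 probe set differed by -0.19 and the dimmest by 0.047, and neither passed when limma was run over all probe sets (adjusted p = 0.508 and 0.926).

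Psmb10 was 8.95, 8.91, 9.12 and 9.13 in WT, and its RaptorKO values of 8.91, 8.89, 8.89 and 8.91 lay just under them. The gap between the groups was small beside the spread of WT, and the difference of -0.13 (95% interval -0.33 to 0.079) did not pass (limma adjusted p = 0.659). The median over the 3 genes was -0.099, and it was -0.044 with quantile normalization and -0.052 without RaptorKO 3.

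The constitutive subunits that the immunoproteasome displaces varied more in RaptorKO than in WT. Psmb5, with the chymotrypsin-like site, read 8.23, 8.04, 8.09 and 8.07 in WT and 8.10, 8.18, 7.58 and 7.86 in RaptorKO. The low values of RaptorKO 3 and 4 gave an SD of 0.27 against 0.09 in WT, and the difference was -0.18 (95% interval -0.47 to 0.11, limma adjusted p = 0.658). Psmb6, with the caspase-like site, read 8.77, 8.60, 8.87 and 8.71 in WT and 8.69, 8.76, 8.36 and 8.60 in RaptorKO, a difference of -0.14 (95% interval -0.38 to 0.11).

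Psmb7, with the trypsin-like site, was nearly constant in WT at 8.90, 8.83, 8.83 and 8.80. In RaptorKO it read 8.54, 9.16, 8.63 and 8.17, so that RaptorKO 2 lay above every WT array and the other 3 below. The difference of -0.21 had a 95% interval of -0.59 to 0.16 (limma adjusted p = 0.692). The greater spread in RaptorKO was not tested. Set side by side, the differences were -0.035 and -0.18 for Psmb8 and Psmb5, -0.099 and -0.14 for Psmb9 and Psmb6, and -0.13 and -0.21 for Psmb10 and Psmb7. Their order was not stable: in replicates 1 and 2 alone they were 0.061 and 0.0066, -0.045 and 0.040, and -0.030 and -0.013, and the second Psmb9 probe set (-0.19) lay below Psmb6. On the arrays the log2 difference between the partners of a pair, set to 0 at the WT mean, averaged 0.15 ± 0.20 in RaptorKO for Psmb8 and Psmb5 (SD in WT 0.083), 0.038 ± 0.069 for Psmb9 and Psmb6 (SD in WT 0.23) and 0.087 ± 0.42 for Psmb10 and Psmb7 (SD in WT 0.14). These 3 mean differences were no larger than the spread within a group in at least 1 of the genotypes.

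**Figure D2:**
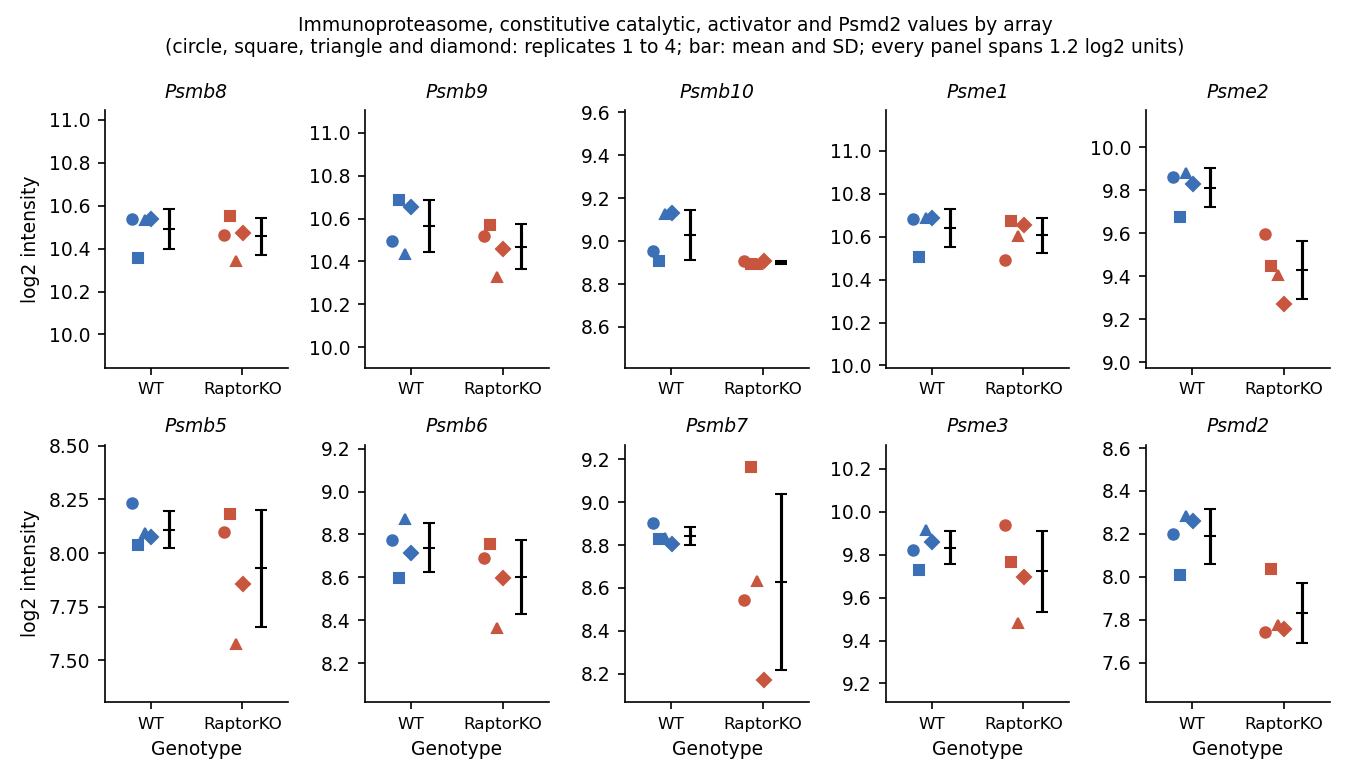
Log2 intensity on each array (points, shaped by replicate number) with the mean and SD (bars) for the immunoproteasome genes, their constitutive counterparts, the activators and Psmd2; every panel spans the same range of log2 units. Psme2 separates by genotype, and Psmb10 only narrowly (lowest WT value 8.908, highest RaptorKO value 8.907). Psmd2 overlaps in 1 array of each group, and Psmb7 is spread from 8.17 to 9.16 in RaptorKO.

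Over the whole core particle, 6 of 7 tested alpha subunit genes and 6 of 7 tested beta subunit genes, Psmb5, Psmb6 and Psmb7 included, had a lower mean in RaptorKO, with 0 called. The median over these 14 was -0.14, and -0.060 without RaptorKO 3. Psma4, an alpha ring subunit, read 9.07, 8.79, 9.12 and 9.11 in WT and 8.74, 8.73, 8.71 and 8.90 in RaptorKO. Apart from WT 2 and RaptorKO 4 its groups were separate, and the difference of -0.25 (SE 0.11) had an unadjusted p of 0.0385 and an adjusted p of 0.341 in limma.

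Psma7, another alpha subunit, had the largest positive difference of the alpha ring at 0.027 (95% interval -0.20 to 0.26), with 10.22, 10.03, 10.08 and 10.17 in WT and 10.20, 10.34, 10.02 and 10.04 in RaptorKO. A second probe set of Psma7 gave 0.046. Psmb1, a beta subunit without a catalytic site, read 8.78, 8.51, 8.89 and 8.83 in WT and 8.78, 8.97, 8.68 and 8.65 in RaptorKO and differed by 0.018. Both genes had their highest RaptorKO value in RaptorKO 2. Psmb2, also non-catalytic, read 9.95 to 10.28 in WT and 9.83 to 9.93 in RaptorKO (-0.20, limma adjusted p = 0.458) without overlap of the groups. The remaining core genes differed by -0.16 (Psmb3) to -0.058 (Psma3).

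The regulatory particle had a lower mean in RaptorKO for 14 of 16 genes, with 0 called. Its median was -0.15 (-0.22 without WT 2 and -0.10 without RaptorKO 3). Psmd2 encodes the large scaffold of the base on which ubiquitin receptors dock. It read 8.20, 8.01, 8.29 and 8.26 in WT and 7.74, 8.04, 7.78 and 7.76 in RaptorKO. RaptorKO 2 reached into the WT range just above WT 2, and the other 3 RaptorKO values lay below it. The difference was -0.36 (SE 0.11), from 8.19 ± 0.13 to 7.83 ± 0.14 (SD, n = 4), with an unadjusted p of 0.0066 and an adjusted p of 0.143 in limma. It passed with array weights alone (-0.42, adjusted p = 0.0466) among the alternatives tried, whose highest adjusted p was 0.681, within replicates 1 and 2. Averaged over its probe sets, Psmd2 differed by -0.22 (limma adjusted p = 0.253). The other probe set in that average was too dim to be tested, with means of 3.59 in WT and 3.50 in RaptorKO.

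All 5 ATPase genes measured had a lower mean, with differences from -0.24 to -0.039. Within replicates 1 and 2 only 2 of the 5 were lower and the median was 0.12, while within replicates 3 and 4 all 5 were lower with a median of -0.26. The largest was that of Psmc5, with 8.40, 8.21, 8.14 and 8.10 in WT and 8.07, 8.22, 7.76 and 7.86 in RaptorKO (SE 0.12, limma adjusted p = 0.459). Its replicates 3 and 4 were the lower ones in both genotypes. Psmc1 and Psmc2, other subunits of the ATPase ring, differed by -0.039 and -0.040. A second probe set of Psmc4 differed by -0.23, where the brighter one differed by -0.099.

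Of the 11 non-ATPase genes, 9 had a lower mean. Psmd6, a lid subunit, read 7.77, 7.78, 7.64 and 7.84 in WT and 7.93, 7.53, 7.23 and 7.11 in RaptorKO, where RaptorKO 1 stood above all WT arrays (difference -0.31, SE 0.16, limma adjusted p = 0.464). Psmd14, the deubiquitinase of the lid, differed by -0.19, and Psmd4, a ubiquitin receptor, by -0.14. A dimmer probe set of Psmd4 differed by -0.33 without overlap of the groups (limma over all probe sets, adjusted p = 0.218). The dimmest differed by -0.044 with overlapping groups (limma over all probe sets, adjusted p = 0.936). Psmd7, the lid partner of Psmd14, had the largest positive difference of the class at 0.094, with 7.62, 7.29, 7.46 and 7.36 in WT and 7.54, 7.72, 7.53 and 7.31 in RaptorKO; its dimmer probe sets gave -0.0034 and -0.047. Psmd3, a further lid subunit, differed by 0.0090. The others ranged from -0.23 (Psmd13) to -0.060 (Psmd1).

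Of the assembly chaperones, which hold the subunits while the particles are built, 4 of 6 had a lower mean and 0 were called. Their median was -0.040, with -0.089 without RaptorKO 2, 0.0056 without RaptorKO 3 and 0.028 with each probe set taken separately. Psmg1 and Psmg2 encode the partners of 1 chaperone dimer of the alpha ring, yet their means differed in opposite directions. Psmg1 read 7.20, 6.89, 6.85 and 7.26 in WT and 6.61, 6.86, 7.07 and 6.61 in RaptorKO (-0.27, SE 0.14, limma adjusted p = 0.464). Psmg2 read 7.19, 7.10, 7.11 and 7.16 in WT and 7.39, 7.43, 7.15 and 7.44 in RaptorKO (0.22, SE 0.10, limma adjusted p = 0.388). For Psmg2 only RaptorKO 3 lay in the WT range, and a second probe set gave 0.17 without overlap of the groups. The difference between these genes was not tested. Psmg3 and Psmg4, the partners of the other alpha ring dimer, differed by -0.19 and 0.057. Psmd5 and Psmd9, chaperones of the regulatory particle base, differed by -0.0011 and -0.079.

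The 2 genes outside the complex had means that differed in opposite directions. Psmc3ip encodes a factor of homologous recombination in meiosis and read 6.54, 6.12, 5.87 and 6.39 in WT and 6.67, 6.89, 6.34 and 6.47 in RaptorKO. It had the largest positive difference of all members (0.37, SE 0.16, unadjusted p = 0.0434, adjusted p = 0.36 in limma), with overlapping groups. Psme3ip1, whose product binds the activator of Psme3, read 7.79 to 8.14 in WT and 7.87 to 7.94 in RaptorKO and differed by -0.099 (limma adjusted p = 0.785).

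The members were also compared array by array. On each array the median deviation of the members from their own WT means was 0.056, -0.12, 0.036 and 0.033 on WT 1 to WT 4 and -0.080, 0.0048, -0.22 and -0.14 on RaptorKO 1 to RaptorKO 4. WT 2 thus stood with the RaptorKO arrays, and RaptorKO 2 with the WT arrays. Against their means over all 8 arrays, 11 of 44 members were high on WT 2, 32 on RaptorKO 2 and 3 on RaptorKO 3. The same medians over all tested genes stayed between -0.048 and 0.037, lowest on RaptorKO 3 and highest on RaptorKO 2.

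**Figure D3:**
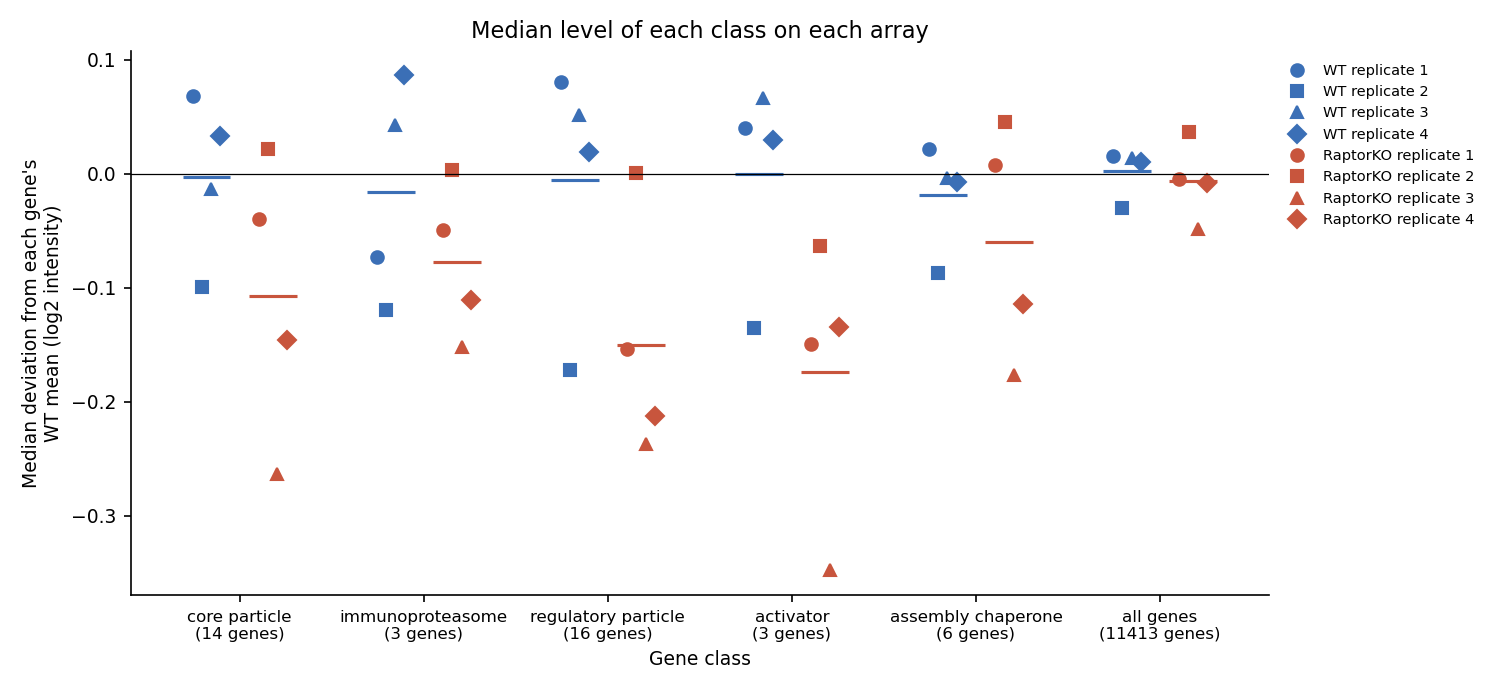
Median over the genes of each class of the deviation from each gene's WT mean (log2 intensity), for every array, with the group means as bars. RaptorKO 3 is the lowest array in each of the 5 groups of genes drawn and among all genes, and the genotypes overlap in each.

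Replicates 1 and 2 of both genotypes carried Xist at 10.88 to 11.18, and replicates 3 and 4 at 5.04 to 5.62, with the Y-linked Eif2s3y the other way round (2.92 to 3.36 and 7.70 to 8.19). The 2 sets thus correspond to a female and a male pattern, balanced over genotype. Within replicates 1 and 2 the median of the members was -0.019, with 24 of 44 lower in RaptorKO. Within replicates 3 and 4 it was -0.23, with 40 of 44 lower. Over all tested genes the medians were 0.021 and -0.041, with 5300 and 6473 of 11413 lower. The arrays of replicates 1 and 2 did not go the same way. By the median deviation of the members, WT 1 (0.056) lay above RaptorKO 1 (-0.080), but WT 2 (-0.12) lay below RaptorKO 2 (0.0048).

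The core particle had a median of -0.0034 in the former and -0.25 in the latter, the regulatory particle -0.039 and -0.29, and the immunoproteasome -0.030 and -0.15. Psme2 differed by -0.25 and -0.52, and Psmd2 by -0.21 and -0.51, negative in both sets. No member was called in either set (limma), where 0.0789% and 0.745% of all genes were called. The difference between the sets was more negative in replicates 3 and 4 for 42 of 44 members, against 61.1% of all genes. In the limma interaction fit 0 members were called, with 0% of all genes called, and 3 had an unadjusted p under 0.05 (Psmc4, Psmg4 and Psmd6), where 11.4% of all genes had one. The smallest adjusted p of a member was 0.4. Each set has 2 arrays per genotype, and sex cannot be told apart from anything else that the sets share.

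**Figure D4:**
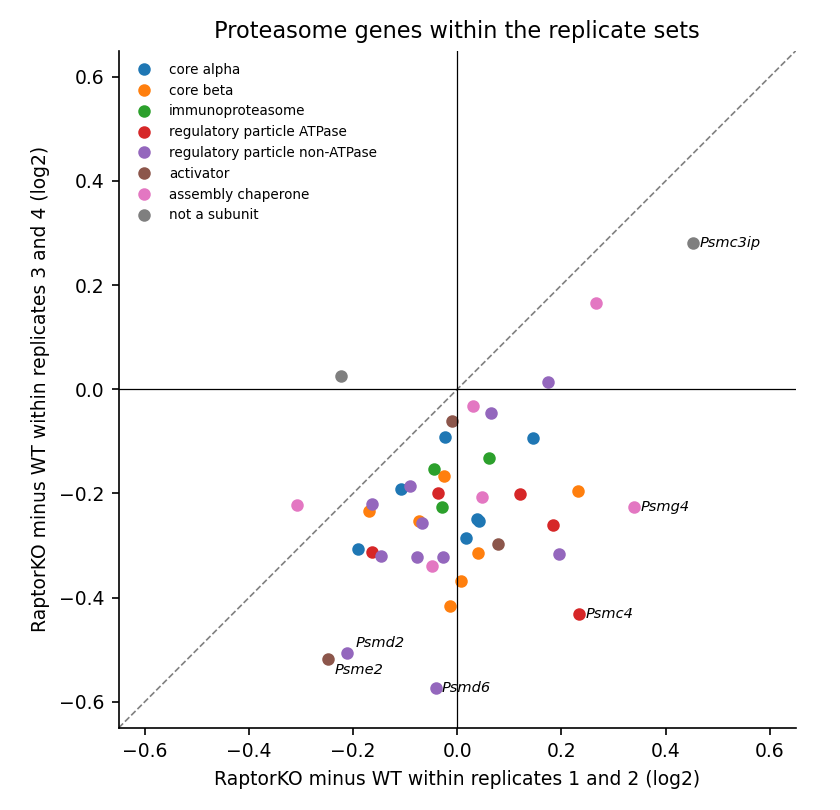
Difference RaptorKO minus WT within replicates 1 and 2 (horizontal) and within replicates 3 and 4 (vertical) for the 44 tested genes, coloured by class, with the dashed line marking equal differences. Of the 44 points, 42 lie below the dashed line, and Psme2 and Psmd2 are low on both axes.

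Other genes of the pathway gave a mixed picture. Among partners of the proteasome outside the symbol rule, 0 of 11 were called (median -0.012). The lowest p-values belonged to Zfand5, a proteasome-binding zinc finger protein (-0.25, limma adjusted p = 0.389), and Pomp, the maturation factor of the core, whose mean was 10.05 in WT and 9.83 in RaptorKO (-0.22, limma adjusted p = 0.432). Among 9 tested genes of ubiquitin activation and substrate shuttling 0 were called (median -0.031), with Ubqln4, a ubiquilin shuttle (0.34, limma adjusted p = 0.237), and Faf1, a cofactor of the segregase encoded by Vcp (0.13, limma adjusted p = 0.68), at the lowest p-values.

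Of 13 transcriptional regulators, 1 was called higher and 0 lower, against 0.824% and 1.14% of all tested genes. This list too was chosen with earlier results of these data known, so its count is no independent support. Mafg, a small Maf protein that pairs with the factors of Nfe2l1 and Nfe2l2, rose by 0.89 (SE 0.14, limma adjusted p = 0.00714), from a mean of 6.06 to 6.95. Nfe2l1 itself had means of 7.36 and 7.51, a difference of 0.14 (SE 0.14, limma adjusted p = 0.759). Mafg was called without any single array (limma adjusted p at most 0.0297) and not within either replicate set alone (up to 0.185). Groups did not overlap for 2 genes of the list with RaptorKO higher, Mafg and Maff, and for 2 with RaptorKO lower, Stat3 and Nfyc. Over all tested genes the shares without overlap were 3.73% and 5.09%. Maff differed by 0.90, Stat3 by -0.26 and Nfyc by -0.18, none of them called.

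In class I antigen processing, which uses the peptides of the immunoproteasome, 0 of 12 genes were called and 11 had a lower mean (median -0.075). Of all tested genes 52.4% had a lower mean. This list was also chosen with earlier results of these data known, so its counts are no independent support. Calr, a chaperone of class I molecules, differed by -0.30 (limma adjusted p = 0.189), and Tapbp, the tapasin of the peptide loading complex, by -0.26 (limma adjusted p = 0.198). Of 22 genes of interferon signalling and its targets, 6 were called lower and 0 higher, against 1.14% and 0.824% of all tested genes; the list was chosen with earlier results of these data known, so its count is no independent support. These were the interferon-inducible GTPases Gbp3 (-1.11, limma adjusted p = 0.00243), Gbp2 (-0.57), Igtp (-0.46), Gbp7 (-0.46), Iigp1 (-0.67) and Ifi47 (-0.44, limma adjusted p = 0.0472). Gbp3 stayed called without any single array, while each of the other 5 stayed called in only 1 of the 8 fits that leave out an array, with the same sign throughout. Calls were also lost with the replicate block (Gbp2, Gbp7, Igtp and Ifi47), with arrays centred on the median (Gbp7, Igtp, Ifi47 and Iigp1) and without the brightness filter (Ifi47 and Iigp1). Iigp1 was not called with quantile normalization or with a term for the replicate sets, and within a replicate set alone Gbp3 was the only one of the 6 called, in replicates 3 and 4. Irf1, the interferon-induced factor that drives Psmb8 and Psmb9, differed by -0.15 (limma adjusted p = 0.58) and Jak1, a kinase of the interferon receptors, by -0.41 (limma adjusted p = 0.0585). Among the proteasome genes that interferon induces, Psme2 differed by -0.38 and Psme1, Psmb8, Psmb9 and Psmb10 by -0.13 to -0.035. None of them was called, and a link to the interferon genes above was not tested.

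Markers of other cells also differed in mean. All 6 tested macrophage and monocyte markers had a higher mean in RaptorKO (median 0.42), with a mean level of the list of 4.86 to 5.70 on the WT arrays and 5.39 to 6.03 on the RaptorKO arrays; Adgre1 was under the filter percentile on every array. All 4 tested T cell markers had a lower mean (median -0.22, 10.52 to 10.67 in WT and 10.33 to 10.45 in RaptorKO), as had Cd8a and Cd8b1 (median -0.90), whose mean ranged from 6.32 to 8.07 in WT and from 6.08 to 7.03 in RaptorKO. B cell markers had a higher mean for 3 of 4 (median 0.25, 5.15 to 6.37 and 5.72 to 6.16). Cd8b1 differed by -0.77 with overlapping groups (unadjusted p = 0.00349, adjusted p = 0.103 in limma). None of these markers was called. Dendritic cell and NK cell lists had only 2 tested genes each, with Flt3, Xcr1, Ncr1 and Klrb1c under the percentile on every array. Nkg7, a gene of cytotoxic granules from the NK cell list, had means of 7.40 and 8.27 without overlap of the groups (0.87, unadjusted p = 0.00369, adjusted p = 0.106 in limma). Eomes, the other tested gene of that list, differed by 0.073 (limma adjusted p = 0.905). Of its untested genes, Klrk1 and Klrb1c had a lower mean in RaptorKO (-0.24 and -0.15) and Ncr1 a higher one (0.084). In the erythroid list, Hba-a1, a globin gene, differed by 1.10 with overlapping groups (unadjusted p = 0.00799, adjusted p = 0.159 in limma), and Alas2 by -0.079. The list means ranged from 6.04 to 7.17 in WT and from 6.84 to 7.25 in RaptorKO for the erythroid list. Whether other cells contribute to the proteasome values was not tested, and fewer cells of a type and less RNA per cell cannot be told apart in such samples.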

How the data were processed

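RNA of 8 samples was hybridised to 1 array each. The deposited values are log2 intensities per probe set, made by the authors with RMA, per the submitters' processing notes. RMA normalizes between arrays, so differences in total signal are lost; array medians lay between 5.21 and 5.29. No label ties a sample to its own mouse, and the p-values therefore cover variation among these arrays, some of which may be technical. The number of arrays limits the precision.

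Of 45141 probe sets, 28898 had 1 gene, 551 several and 15692 none; 28689 matched RefSeq (GRCm38.p6) by Entrez identifier. Of 17097 genes, 11413 passed the brightness filter. Genotypes were compared with limma 3.58.1 in R 4.3.3 (lmFit, eBayes, Benjamini-Hochberg over all tested genes), a gene being called at an adjusted p under 0.05; the scripts were tested on simulated data. By rule, values on every array were given for the immunoproteasome genes and their counterparts, the activators, any called member and the largest positive and negative difference of each class, and pathway lists gave Nfe2l1, called genes or the 2 smallest p-values. Psmd6, Psmb2, Irf1, Jak1 and other named genes were chosen after their values were seen. Members and lists were chosen with earlier results of these data known, and motifs after the promoters had been seen. Figures used matplotlib 3.10.9 in Python 3.11.15. Alternatives were a replicate block, other probe set rules, filters, normalizations and variance models, array weights, a term for and fits within the replicate sets, and leaving out each array; for the pathway genes these were added after seeing the data.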

Additional observations from a re-analysis of the deposited data

Results flagged for a closer look

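Of 88 groups of 4 values (44 genes in 2 genotypes), 7 held a value whose gap to its nearest neighbour took up most of the range of the group (Dixon's criterion), where chance flags about 1 in 20 groups. On WT 2 the values were low for Psma4 (8.79, nearest 9.07), Psmb8 (10.35, nearest 10.53) and Psme1 (10.51, nearest 10.68). High values were found on RaptorKO 2 for Psmd2 (8.04, nearest 7.78), on RaptorKO 4 for Psma4 (8.90, nearest 8.74), on WT 3 for Psmd8 (9.51, nearest 9.21) and on WT 4 for Psmg4 (7.36, nearest 7.10).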

How the results depend on the processing

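The count of proteasome genes called higher was 0 under every alternative run. The count called lower was 1 with an intensity trend (Psme2) and 1 with array weights (Psmd2), and 0 otherwise, also without any single array and with the replicate block. Replicate numbers did not pair the arrays (correlations of same-numbered deviations -0.15 to 0.16, with 2 of 8 arrays closest to their own number); the replicate block gave 175 calls over all genes against 224 without it, and Gbp2, Gbp7, Igtp and Ifi47 were not called with it. In replicates 1 and 2, and then in replicates 3 and 4, the median of the tested members was -0.019 and -0.23, that of the core particle -0.0034 and -0.25, that of the regulatory particle -0.039 and -0.29, and that of the assembly chaperones 0.039 and -0.21; the activator medians were -0.010 and -0.30. The cause was not tested. Leaving out single arrays gave medians of -0.17 to -0.060 for all members. Over the 19 alternatives that fit both replicate sets together, 32 of 44 members kept the sign of their difference; the other 12, none differing by more than 0.16 in size, changed it in 31 of 835 values, and no such value was called. Probe sets of a gene disagreed in sign for 3 of 11 members with several tested.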
